A study of Bos taurus with 8 samples.

Results

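ISG15, MX1, MX2 and RSAD2 are 4 interferon-stimulated genes, described here in peripheral blood mononuclear cells (PBMCs, the lymphocytes and monocytes of blood) of 2 kinds of cattle before and after heat. They were taken by Ensembl gene ID: ENSBTAG00000014707 for ISG15, ENSBTAG00000030913 for MX1, ENSBTAG00000008471 for MX2 and ENSBTAG00000016061 for RSAD2, 4 of 24596 listed genes. The groups were crossbred cattle at day 0 and at day 7, and Tharparkar cattle (an Indian zebu breed) at day 0 and at day 7, where day 0 is before heat and day 7 follows 7 days of it. RNA of 5 animals was pooled for each group, and each group has 2 files labelled as replicates. The labels carry the tag of heat stress on all 8 files, day 0 included, and give neither the parent breeds of the crossbred animals nor any age or sex used here.

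Interferons are secreted by cells that sense viral nucleic acid, and signal through JAK kinases and STAT transcription factors to switch on a broad antiviral programme. ISG15 encodes a small ubiquitin-like protein that is attached to other proteins and is also released from cells. MX1 and MX2 encode dynamin-like GTPases that form rings around viral components, and RSAD2 encodes viperin, an enzyme that makes a chain-terminating nucleotide. All of these genes are commonly read in bovine blood cells as markers of interferon exposure, for example in early pregnancy and in viral infection.

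The files held between 5173115 and 8593506 expected counts each. The 2 files of a group differed by less than sampling noise, with a median chi-square ratio between 0.0762 and 0.112 where independent reads of 1 library give 1. They were therefore counted as 1 library, so that n = 1 per group, no comparison below has a replicate check, and variation between animals was not measured. Intervals are 95% and measure counting error alone; without molecular identifiers, reads are not independent molecules. A change was called at 2-fold or more, and 11711 genes, the 4 described here among them, passed the filter on low counts. The labelled cell type could not be checked against its markers, because the files hold gene IDs alone and 0 of them matched a symbol.

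ISG15 was the highest of the 4 genes in every library and RSAD2 the lowest, on the deposited TPM scale (transcripts per 1000000, which allows for gene length). Replicates 1 and 2 of ISG15 gave 131.56 and 131.16 TPM in crossbred at day 0, 292.17 and 296.01 in crossbred at day 7, 247.73 and 243.81 in Tharparkar at day 0, and 124.1 and 124.16 in Tharparkar at day 7. Crossbred at day 7 and Tharparkar at day 0 were thus high, and the other pair of libraries low. Ranked by TPM over all listed genes, ISG15 stood between place 385 and place 850.

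MX1 gave 68.56 and 70.05 TPM in crossbred at day 0, 127.1 and 126.03 in crossbred at day 7, 108.02 and 108.53 in Tharparkar at day 0, and 94.86 and 95.26 in Tharparkar at day 7. Crossbred at day 0 was low and the other 3 libraries lay closer together. MX2, its neighbour and relative, gave 31.68 and 31.39 TPM in crossbred at day 0, 13.26 and 13.22 in crossbred at day 7, 12.77 and 12.78 in Tharparkar at day 0, and 18.6 and 18.31 in Tharparkar at day 7. For MX2 it was crossbred at day 0 that was high, the library in which MX1 was lowest.

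RSAD2 gave 7.19 and 7.07 TPM in crossbred at day 0, 9.46 and 9.53 in crossbred at day 7, 7.17 and 6.99 in Tharparkar at day 0, and 7.32 and 7.39 in Tharparkar at day 7. Its libraries differed little, by 1.34-fold between the highest and lowest mean TPM, against 2.37-fold for ISG15, 1.83-fold for MX1 and 2.47-fold for MX2. Within a group, the counts of the 2 files differed by at most 2.54% for ISG15, 1.63% for MX1, 2.63% for MX2 and 3.51% for RSAD2.

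**Figure D1:**
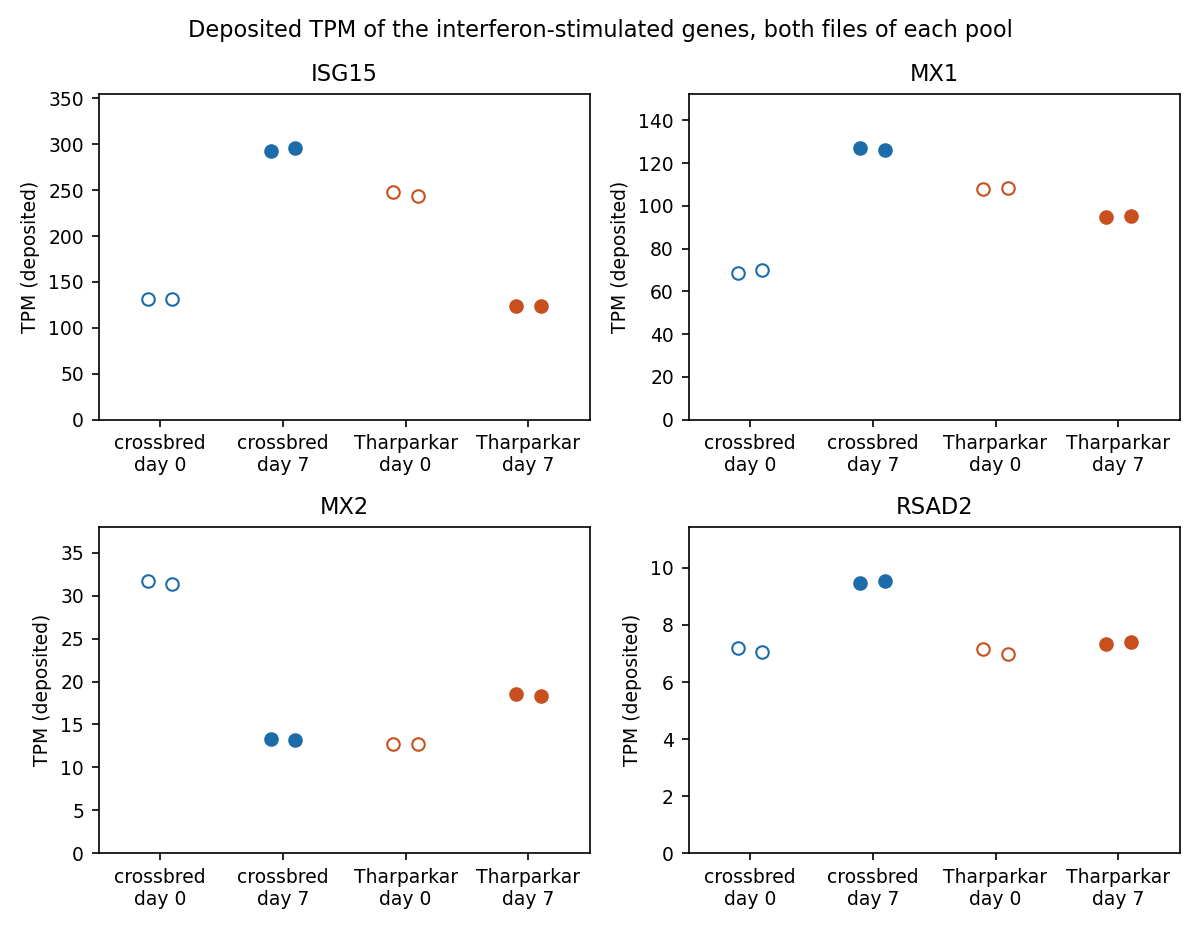
Deposited TPM (y axis, from 0, its own scale in each panel) of the 4 genes in the 2 files of each pool, replicate 1 on the left; open points are day 0, filled points day 7, blue crossbred and orange Tharparkar. ISG15 is high in crossbred at day 7 and Tharparkar at day 0, MX2 is high in crossbred at day 0, and RSAD2 lies between 6.99 and 9.53 TPM in all 8 files.

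The day 7 changes address the question of the series, whether the breeds respond differently to heat. They were computed on counts per 1000000 (CPM) scaled by TMM (a method that centres the libraries on the bulk of genes). In crossbred cattle ISG15 rose and MX2 fell by more than 2-fold, while MX1 and RSAD2 stayed under that limit. Of all genes, 7.49% were at least 2-fold higher and 5.35% at least 2-fold lower in that comparison, so 1 gene of 4 in each direction is to be read against those shares. The median log2 change of the 4 genes was 0.54, against 0.00 over all genes.

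ISG15 rose from a mean of 469 to 985.5 counts in crossbred cattle, a log2 change of 1.07 (interval 0.91 to 1.23) or 2.09-fold. An equal or larger rise was seen in 6.41% of genes. MX1 went from 1181.5 to 2024.52 counts, a log2 difference of 0.77 (0.67 to 0.88), which 11.8% of genes equalled or exceeded in that direction. MX1 and ISG15 were both above their day 0 level by more than counting error, as were 27.9% of all genes at their own depth.

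MX2 fell from 694 to 273.485 counts in crossbred cattle, a log2 change of -1.34 (-1.56 to -1.14), or 2.53-fold. Only 2.53% of genes were lower by as much or more. RSAD2 had 134.5 counts at day 0 and 168 at day 7, a log2 difference of 0.31 whose interval, -0.01 to 0.66, includes 0. The interval only just includes 0, and the value was 0.43 with total counts and up to 0.41 with TPM, so whether RSAD2 differed beyond counting error depends on the scaling. Of all genes, 27.7% had an interval wholly below 0 in crossbred, as MX2 did.

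In Tharparkar cattle ISG15 fell, and the other 3 genes did not pass 2-fold. At least 2-fold lower were 4.53% of all genes, and at least 2-fold higher 3.75%, beside 1 and 0 of the 4. ISG15 fell from 749.5 to 290.5 counts, a log2 change of -1.06 (-1.27 to -0.87), again 2.09-fold, as much or more than which 3.89% of genes were lower. This call sits on the limit: scaling by total counts gave -0.998 and the deposited TPM -0.980, both just short of 2-fold.

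MX1 went from 1574.5 to 1062.5 counts in Tharparkar, a log2 difference of -0.27 (-0.38 to -0.16), and 28.2% of genes were lower by at least that. MX2 went from 240 to 266.5 counts in a smaller library, a log2 difference of 0.45 (0.19 to 0.71). Intervals lay wholly below 0 in 18.6% of all genes, as for ISG15 and MX1, and wholly above 0 in 18.6%, as for MX2. RSAD2 had 114 and 91 counts, a log2 difference of -0.03 (-0.44 to 0.38), and its sign turned to 0.04 with total counts. The median log2 difference of the 4 genes was -0.15, against -0.01 over all genes. In bulk RNA, a change in the number of cells of a type and a change in RNA per cell cannot be told apart, and this holds for every value given here.

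**Figure D2:**
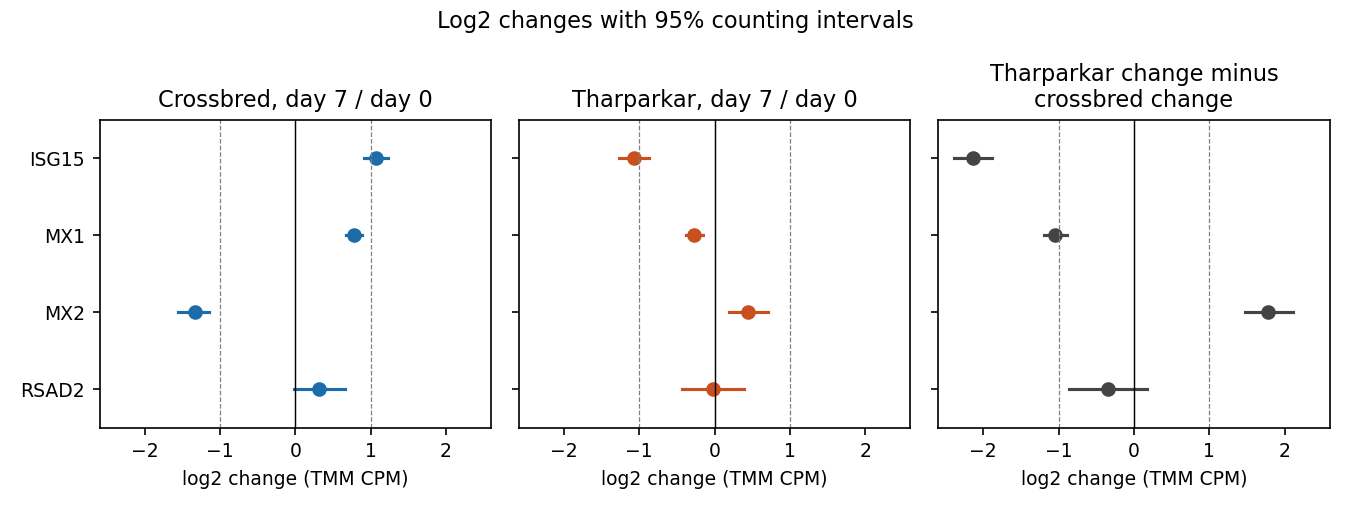
Log2 change of each gene at day 7 in crossbred (left) and Tharparkar (middle), and the Tharparkar change minus the crossbred change (right), on TMM-scaled CPM. Lines are 95% counting intervals, dashed lines mark 2-fold; ISG15 and MX1 lie right of 0 in crossbred and left of it in Tharparkar, and MX2 the other way round.

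The changes in the breeds had opposite signs beyond counting error for ISG15, MX1 and MX2. ISG15 and MX1 were higher in crossbred and lower in Tharparkar with both counting intervals clear of 0, as were 10.4% of all genes. MX2 was lower in crossbred and higher in Tharparkar with both intervals clear of 0, as were 10.3% of all genes. Only ISG15 of the 4 passed 2-fold in both breeds, and 1.81% of genes did so in its directions. No library enters both changes.

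The Tharparkar change minus the crossbred change was a log2 difference of -2.13 for ISG15 (-2.39 to -1.89, by a normal approximation on the log scale), or 4.38-fold. It was -1.04 for MX1 (-1.20 to -0.89) and 1.79 for MX2 (1.47 to 2.12). For RSAD2 it was -0.34, with an interval of -0.86 to 0.17 that includes 0. A difference of at least 2-fold in the lower direction was found in 15.1% of all genes and in the higher direction in 11.9%, beside 2 and 1 of the 4. Such differences were thus common among all genes, though 3.43% were as far below 0 as ISG15 and 3.96% as far above 0 as MX2.

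**Figure D3:**
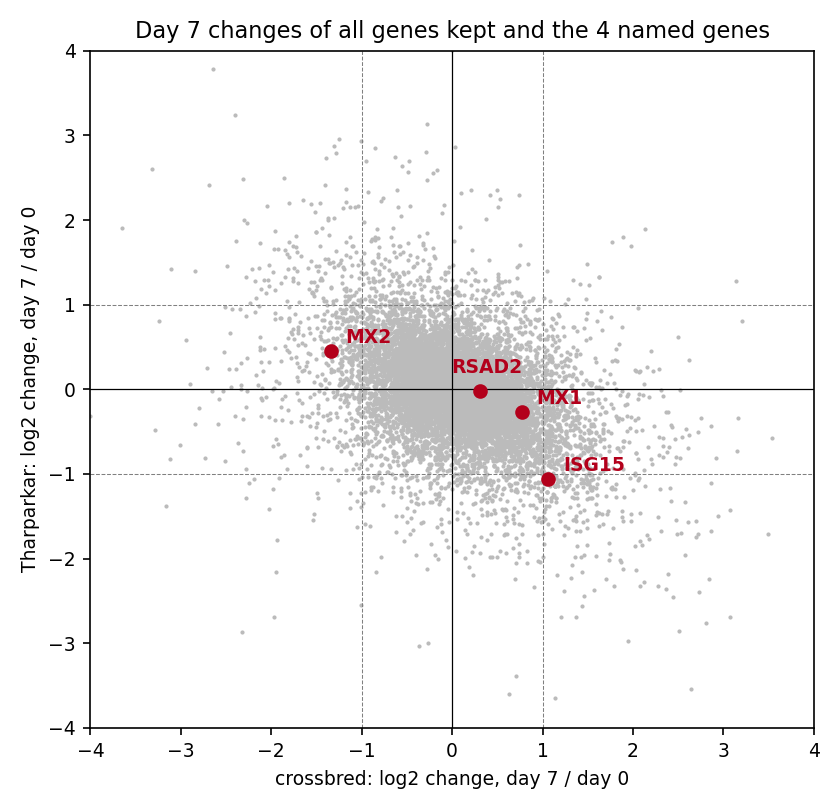
Log2 change at day 7 in crossbred (x axis) against Tharparkar (y axis) for the 11711 genes kept (grey; 9 lie outside the plotted range), with the 4 genes in red and dashed lines at 2-fold. ISG15 and MX1 lie at the lower right, MX2 at the upper left and RSAD2 near the centre.

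Between the breeds before heat, ISG15 was higher and MX2 lower in Tharparkar, each by more than 2-fold. The 2 comparisons between breeds use the same libraries as the day 7 changes and are other views of the same values. ISG15 had a log2 difference at day 0 of 1.15 (0.98 to 1.32) and MX2 one of -1.05 (-1.28 to -0.85). Among all genes 3.1% were at least 2-fold higher and 3.92% at least 2-fold lower in Tharparkar. MX1 was higher by a log2 difference of 0.89 (0.777 to 0.996), and RSAD2 had 0.23 (-0.13 to 0.61). With deposited TPM the ISG15 difference was 0.90, short of 2-fold, and RSAD2 turned to -0.01. TPM moved the median of all genes by -0.21 in this comparison.

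After 7 days of heat the order of the breeds was turned round beyond counting error for ISG15, MX1 and MX2. How many of all genes turned round in this way was not counted. ISG15 was lower in Tharparkar by a log2 difference of -0.98 (-1.18 to -0.80), just under the limit, and it passed 2-fold with total counts at -1.15 and with TPM at -1.24. MX1 had -0.16 (-0.27 to -0.05), MX2 had 0.73 (0.49 to 0.99) and RSAD2 had -0.11 (-0.49 to 0.27). The sizes for these 3 genes depended on the scaling. MX1 had -0.32 with total counts and -0.41 with TPM, MX2 had 0.45 with TPM, and RSAD2 had -0.27 with total counts and down to -0.36 with TPM. None of the 4 was called in this comparison, where 5.08% of all genes were at least 2-fold higher and 9.79% at least 2-fold lower in Tharparkar.

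Ordered by TMM-scaled CPM, ISG15 stood at 120.2 in Tharparkar at day 0, 113.7 in crossbred at day 7, 57.3 in Tharparkar at day 7 and 54.2 in crossbred at day 0. The upper pair did not differ beyond counting error, nor did the lower pair, and between the pairs lay a log2 step of 0.99. The order within each pair turned on the TPM scale, where the upper pair, at 294.09 in crossbred and 245.77 in Tharparkar, was farther apart than the counting interval of its CPM ratio allows. MX1 stood at 252.6, 233.6, 209.7 and 136.5 CPM in the same order of libraries, with every step clear of counting error and the widest, 0.62, above crossbred at day 0. On the TPM scale crossbred at day 7 stood above Tharparkar at day 0 for MX1 as well. With total counts the upper pair turned for both genes. For ISG15 the log2 differences from crossbred at day 0 were then 1.18 (crossbred at day 7) and 1.03 (Tharparkar at day 0). For MX1 they were 0.89 and 0.77.

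MX2 ran in a different order, with 80.2 CPM in crossbred at day 0, 52.6 in Tharparkar at day 7, 38.5 in Tharparkar at day 0 and 31.6 in crossbred at day 7. Each step was clear of counting error, but on the TPM scale the lowest pair changed places. RSAD2 had between 15.5 and 19.4 CPM, and none of its neighbouring libraries differed beyond counting error.

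The variation of a gene between the 4 libraries can be split into a breed part, a day part and a breed by day part. The breed by day part held 99.4% of the sum of squares for ISG15 and 78.0% for MX2. It held 57.9% for MX1. The split was made for the 4 genes alone, so how common such shares are among all genes was not measured. The rest of the MX1 split depended on the scaling: the breed part held 28.5% and the day part 13.6% with TMM, but 10.7% and 25.4% with total counts and 3.23% and 28.4% with TPM. For RSAD2 the breed by day part held 54.0% with TMM, 38.2% with total counts and 26.3% with TPM, below its day part in the last 2. For ISG15 it held at least 96.9% and for MX2 at least 72.1% under the same scalings, which were applied to the split after the data were seen. The spread of RSAD2 was small: the SD of log2 CPM over libraries was 0.13, against 0.62 for ISG15, 0.40 for MX1 and 0.58 for MX2. ISG15 thus had nearly no mean difference between the days or between the breeds, only the crossed one.

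Ratios of genes within a library need no scaling between libraries. MX1 had 1.70 times the counts of MX2 in crossbred at day 0 (1.55 to 1.87) and 7.40 times in crossbred at day 7 (6.53 to 8.45). In Tharparkar the ratio was 6.56 at day 0 (5.72 to 7.54) and 3.99 at day 7 (3.49 to 4.58). The intervals of the 2 days did not overlap in either breed, and how many other gene pairs do the same was not counted. These ratios use the same counts as the changes above. The lowest ratio was in crossbred at day 0 and the next lowest in Tharparkar at day 7. Both files of each group gave nearly the same ratio, for example 1.68 and 1.73 in crossbred at day 0.

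ISG15 had 0.676 times the counts of MX2 in crossbred at day 0 (0.600 to 0.761) and 3.60 times in crossbred at day 7 (3.16 to 4.15). In Tharparkar it had 3.12 times at day 0 (2.70 to 3.63) and 1.09 times at day 7 (0.920 to 1.29). ISG15 against MX1 moved less: 0.397 (0.356 to 0.442) and 0.487 (0.451 to 0.526) in crossbred, and 0.476 (0.436 to 0.520) and 0.273 (0.239 to 0.311) in Tharparkar. The low value in Tharparkar at day 7 is where ISG15 had fallen and MX1 had not passed 2-fold.

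**Figure D4:**
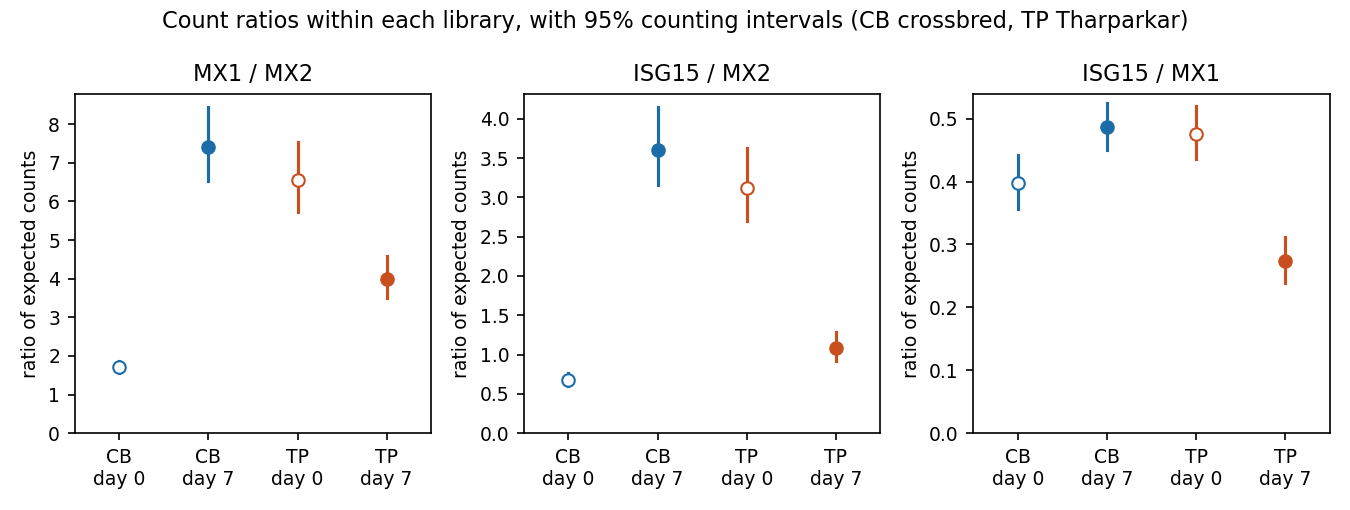
Ratio of expected counts (y axis, from 0) of MX1 to MX2, ISG15 to MX2 and ISG15 to MX1 within each library (CB crossbred, TP Tharparkar; open points day 0, filled points day 7), with 95% counting intervals. The ratios to MX2 are lowest in crossbred at day 0, at 1.70 and 0.676, and ISG15 to MX1 is lowest in Tharparkar at day 7, at 0.273.

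MX1 and MX2 lie next to each other, with 0 protein-coding genes between them in the ARS-UCD2.0 gene table, and they are similar in sequence. Expected counts of both, deposited to 2 decimals, were whole as printed in 6 of the 8 files; how many reads align to both genes was not measured. In the crossbred day 7 files MX1 had 2041.02 and 2008.01 counts and MX2 had 274.98 and 271.99, and their sums, 2316 and 2280, are whole. ISG15 and RSAD2 counts were whole in all 8 files. The tables list 2 transcripts for MX1 and 1 for each of the other genes, and the mean length of MX1 stayed between 2327.57 and 2330.28 bases over the files.

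The likeness of patterns was measured as the Euclidean distance between log2 CPM profiles over the 4 libraries, each centred on its mean. It was taken among 7763 genes with a mean CPM of at least 10. This distance also depends on the size of a gene's differences, and RSAD2 differed little between libraries (SD of log2 CPM 0.13). Among the 4 genes the nearest pair was MX1 and RSAD2 at 0.48, though 722 genes were nearer to MX1 than RSAD2 was, and 3824 nearer to RSAD2 than MX1 was. Next came ISG15 and MX1 at 0.66, and the farthest was ISG15 and MX2 at 2.02. In all, 612 genes were nearer to ISG15 than MX1 was, and 2338 were nearer to MX1 than ISG15 was. For the farthest pair, 7619 were nearer to ISG15 than MX2 was, and 7554 were nearer to MX2 than ISG15 was. The nearest gene to ISG15 was ENSBTAG00000020937, at 0.15, with 88 and 187.58 mean counts in crossbred at day 0 and 7 and 128 and 56.51 in Tharparkar. The nearest to MX2 was ENSBTAG00000001576, at 0.10, with 515.5 and 212.5 counts in crossbred and 195.5 and 211.5 in Tharparkar. The files pair neither ID with a name, and these 2 were picked from the nearest genes after their values were seen.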

How the data were processed

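RNA sequencing libraries were made from pooled PBMC RNA with a NEBNext Ultra RNA kit, and RNA integrity numbers were above 8, per the labels' protocols. Bowtie2 and RSEM are named in the submitters' processing notes. Their versions, the genome build, the annotation and any use of strand are not given in the sources used here, so antisense reads cannot be told apart. The deposited tables give expected counts (reads assigned to genes by estimation), TPM and FPKM per gene, with length and effective length, per the file headers. The authors' TPM sum to 1000000 in each file, and the deposited FPKM were not used in any comparison.

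The members, lists and tests were chosen with earlier results of these data known. Files of a group were compared by a chi-square per gene over genes with at least 20 counts. All 4 groups lay below the limit of 1.5, and the mean of the 2 files was used. Mean counts were filtered with edgeR 4.0.16 (filterByExpr), scaled by TMM and converted to log2 CPM with a prior count of 2, in R 4.3.3. TMM factors were 1.01, 1.09, 0.930 and 0.974 for crossbred day 0, crossbred day 7, Tharparkar day 0 and Tharparkar day 7. Intervals of ratios are exact Clopper-Pearson intervals on rounded mean counts. Alternatives were DESeq2 1.42.0 size factors and fit, total counts, TPM with pseudocounts of 1 and 0.1, a prior count of 0.5, other filters, edgeR fits with files as replicates (counts rounded), and leaving out each file. The steps were tested on simulated data. The rule for named genes took the 4 members and, as no symbols could be matched, at most 2 IDs of most like pattern; which 2 was decided after their values were seen. Lists of interferon pathway genes and of blood cell markers are lists of symbols, so none could be evaluated. No sequences are shown, as none were at hand for these genes.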

Additional observations from a re-analysis of the deposited data

Results flagged for a closer look

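For 3 of the 4 genes the day 7 change had one sign in crossbred and the opposite sign in Tharparkar with both counting intervals clear of 0, beside 10.4% and 10.3% of all genes in the directions of ISG15 and MX2. RSAD2 had opposite signs with TMM, with both intervals including 0, but the same sign in both breeds with total counts and TPM, where its Tharparkar change was 0.04 and 0.05. The Tharparkar log2 change minus the crossbred one was -2.13 for ISG15, -1.04 for MX1 and 1.79 for MX2. None of these differences was tested, because each group is 1 pool. The 2 files of a group differ by less than sampling noise, so the same signs in all pairings of files for ISG15, MX1 and MX2 follow from the group means and add no evidence.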

How the results depend on the processing

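Across 18 alternative settings and 20 log2 values of the 4 genes, 5 of 360 values took another sign, all of RSAD2, and 9 lay on the other side of 2-fold, all of ISG15. 14 lay outside the counting interval. The cause was not tested, except that filters change which genes are counted. With total counts MX1 was 0.89 in crossbred, and the breed differences of MX1 were 0.77 (day 0) and -0.32 (day 7). With TPM and a pseudocount of 1, the breed differences were 0.90 and -1.24 for ISG15, 0.64 and -0.41 for MX1 at day 0 and day 7, and 0.45 for MX2 at day 7. With a pseudocount of 0.1 they were 0.90 and -1.24 for ISG15, 0.64 and -0.41 for MX1, and -1.30 and 0.48 for MX2. ISG15 at day 7 between the breeds was -1.02 with a filter at a mean CPM of 10. Under total counts the median over all genes shifted by 0.11 in the crossbred change, and by -0.11 (day 0) and -0.16 (day 7) in the breed comparisons. With TPM it moved by up to -0.24 at day 0 and -0.25 at day 7.

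With TPM and a pseudocount of 1, genes past 2-fold at day 7 were 253 higher and 190 lower in Tharparkar (439 and 530 with TMM) and 308 lower in crossbred (627). Higher in Tharparkar than in crossbred were 97 at day 0 (363) and 209 at day 7 (595). With a pseudocount of 0.1, 220 were higher and 852 lower at day 0, and 357 higher and 1817 lower at day 7. With no filter 15855 genes were counted. Of these, 746 were higher and 878 lower in Tharparkar at day 7, while the breeds before heat differed in 581 higher and 787 lower genes. Keeping genes above a mean CPM of 10 left 91 higher and 189 lower for the Tharparkar change and 370 with 203 for the crossbred change. The difference of the changes then counted 624 higher and 932 lower, the breeds at day 0 counted 123 higher with 98 lower, and at day 7 there were 185 higher with 523 lower. The higher share in Tharparkar was 45.3% with TMM and 57.1% with TPM, and in crossbred 58.3% with TMM and 69.2% with total counts. Between the breeds it was 44.2% at day 0 and 34.2% at day 7 with TMM, 31.3% and 20.7% with total counts, and 19.4% and 15.3% with TPM and a pseudocount of 1. The filter at a mean CPM of 10 gave 55.7% at day 0, and 32.5% for the Tharparkar change.

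Leaving out single files moved the breed by day difference of ISG15 from -2.14 to -2.12. The files of a group are near copies, so this says nothing about stability. The replicate check stayed below its limit with the mean over genes, at up to 0.280. The files share only a number: same-numbered files of different groups had correlated deviations of -0.0861 to 0.0930. With the replicate number as a block, edgeR gave -1.07 for ISG15 in Tharparkar and 1.07 in crossbred, -1.35 for MX2 in crossbred, and no call of the 4 genes changed. These edgeR fits compare libraries, not conditions, and the block moved their calls at an adjusted p under 0.05 from 5578 to 5582 genes in Tharparkar and from 7687 to 7692 in crossbred. Counts of 91 to 168 limit the precision for RSAD2.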
